A study of Mus musculus with 2 samples.

Results

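The 42 genes described here act in S phase, the part of the cell cycle in which DNA is copied. They were a given list, matched by gene symbol among the 31053 genes of the files, and each had at least 20 UMIs (unique molecular identifiers, the counted RNA molecules) over both libraries, so all 42 of 42 passed the filter on low counts. The cells came from the jejunum of mice labelled female, of 10-12 weeks, that carry the Lgr5-eGFP-IRES-CreER allele, which drives a green fluorescent protein and an inducible Cre from the locus of Lgr5, a stem cell gene of the crypt base. Cells positive for the fluorescent protein were sorted and captured in droplets, with a kit that reads the 3′ ends of RNAs (Chromium V3.1 NextGEM). One group received an Fc control and the other an antagonist of FZD5 and FZD8, receptors for Wnt ligands. Both groups carry the same allele. Neither the amount given nor its timing is stated in the labels. By the labels there were 3 mice per condition and 1 library per condition, with no label that ties a cell to a mouse. Each group is therefore 1 sample, no test was made, and every comparison is between these libraries.

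Before S phase, the helicase Mcm2-7 is loaded onto DNA at origins in an inactive form, a step called licensing that needs Cdc6 and that geminin (Gmnn) blocks once replication has begun. In S phase Cdc45 and the GINS complex switch the helicase on, polymerases copy the strands around the sliding clamp PCNA, ribonucleotide reductase and thymidylate synthase supply nucleotides, and chromatin proteins restore DNA methylation and nucleosomes. E2F transcription factors drive many of these genes at the entry into S phase, and in the intestine the crypt cells, stem cells and above all their dividing progeny, pass through this programme continuously. By role, 11 of the genes belong to origin licensing and helicase, 11 to the replication fork and DNA synthesis, 3 to nucleotide supply, 5 to DNA repair, 10 to chromatin and histone supply, and 2 are a cyclin and an E2F factor (Ccne2 and E2f8).

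The promoters show what many of the genes have in common beyond their role. RefSeq promoters of the GRCm38.p6 build, from 250 bases before to 50 after the annotated start, were matched by symbol for 32 of the 42 genes. They were searched on both strands for the words TTTGGCGC, TTTCCCGC, TTTGCCGC and TTTCGCGC, forms of the E2F recognition sequence, some of which overlap in one stretch. A word was present for 15 of 32 genes (46.9%), against 2.26% of all 32851 promoters of the table, 4.44% of the 10381 genes with 20 or more UMIs that matched, and 1 of 31 genes (3.23%) listed for G2 and M phase. By role, it was present for 6 of 8 licensing genes, 4 of 8 fork genes and 5 of 9 chromatin genes. It was present for 0 of 3 nucleotide supply genes, 0 of 3 repair genes and 0 of 1 in the cyclin and E2F role. The sequences that follow are those with a word that lies upstream of the gene in both RefSeq and the GENCODE annotation. They are given 5′ to 3′ on the gene's strand in lower case, and the capitals mark the word or overlapping words.
Mcm6, chr1:128359725-128359835, minus strand: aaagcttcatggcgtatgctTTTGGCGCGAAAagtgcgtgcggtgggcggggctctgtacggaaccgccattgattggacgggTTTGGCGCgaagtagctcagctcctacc
Mcm5, chr8:75109336-75109387, plus strand: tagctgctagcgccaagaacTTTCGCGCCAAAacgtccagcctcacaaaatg
Dtl, chr1:191575545-191575572, minus strand: atcagaaagcgtgacgtcagTTTGGCGC
Pola1, chrX:93632266-93632313, minus strand: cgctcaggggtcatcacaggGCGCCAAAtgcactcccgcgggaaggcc
Casp8ap2, chr4:32615274-32615321, plus strand: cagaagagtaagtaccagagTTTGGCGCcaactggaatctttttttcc
Mcm6 held 3 words and Mcm5 held 2 that overlap, so that the capitals run over 12 bases. In Pola1 the word reads on the opposite strand. A match describes the letters and not a bound site. CCAAT, also searched on both strands, was present for 75.0% of the 32 genes and 74.2% of the G2 and M phase genes. It was present for 43.2% of the 10381 genes with 20 or more UMIs, and in 37.4% of all promoters counted singly.

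Some properties of the libraries bear on every value. Cells with 500 or more genes and no more than 20% mitochondrial UMIs were kept. These were 11263 in the control library, with a median of 4478 UMIs, and 11019 in the antagonist library, with a median of 2732 UMIs. Kept cells held 66206242 and 54328008 UMIs. Although both are labelled female, 4 Y-linked genes summed to 106 CPM in control and 5.60 CPM in antagonist cells, and Xist was at 1.33 and 512 CPM. The libraries thus differed in sex-linked transcripts in spite of their labels. A difference by sex and one by condition therefore cannot be told apart for any gene here, including Pola1 on chromosome X. Barcodes with more than 40000 UMIs, a limit chosen after seeing the data, numbered 46 among control cells, with 5.22% of the UMIs, and 209 among antagonist cells, with 23.9%. Of the 209, 99.0% had a UMI of a proliferation gene, their median was 6762 genes, and 82 shared their barcode with the other library, where it held a median of 0.823% as many UMIs. In all, 145 barcodes occurred in both libraries. Results are therefore also given without the barcodes above 40000 UMIs. Summed markers of crypt base stem cells were at 3284 CPM in the control and 642 CPM in the antagonist library, including Lgr5 at 66.2 and 3.09 CPM, so the defining stem cell marker was low in the library labelled FZD5/8 antagonist. Enterocyte markers were at 2024 and 3879 CPM, Paneth markers at 31016 and 24357 CPM, goblet markers at 4796 and 5913 CPM, enteroendocrine markers at 164 and 136 CPM, and tuft markers at 243 and 218 CPM, with every gene of these 6 lists detected in both libraries. Without the barcodes above 40000 UMIs the order for Paneth markers was the opposite, at 11965 CPM in control and 19560 CPM in antagonist cells. Paneth markers made up 37.7% of the UMIs of the 46 control barcodes and 3.96% of those of the 209 antagonist barcodes. T and NK markers were at 1.06 and 2.19 CPM, B and plasma cell markers at 9.62 and 3.59 CPM, myeloid markers at 4.55 and 4.62 CPM, stromal and endothelial markers at 0.302 and 0.147 CPM, and erythroid markers at 0.106 and 0 CPM. S100a8, S100a9, Col1a1, Col3a1, Cdh5, Kdr and Hbb-bt were at 0 in both libraries. Mitochondrially encoded genes held 3.43% and 3.62% of UMIs.

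Over all cells, the S phase genes together were slightly higher in the antagonist library, though single genes went either way. Levels are CPM, a gene's UMIs per 1000000 of the summed UMIs, and a ratio is antagonist over control, with an exact 95% interval that covers counting error only. The 42 genes summed to 2589 CPM in control and to 3067 CPM in antagonist cells, a ratio of 1.18. Without Pclaf, left out after its values were seen, the sums were 2256 and 2472 CPM, with a ratio of 1.10. The median log2 ratio of the 42 genes was 0.10, against -0.15 for the 13757 genes with 20 or more UMIs. In the antagonist library 24 of the 42 genes were higher, against 34.7% of all genes, and 36 lay above the median of all genes. At least 1.5-fold higher were 5 genes (background 6.51%), namely E2f8, Rrm2, Pclaf, Ccne2 and Cdc45. None of the 42 was 1.5-fold lower, where 19.5% of all genes were. In bulk sums like these, fewer cells with an RNA and less RNA per cell cannot be told apart.

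Without the barcodes above 40000 UMIs the median was -0.01 and 20 genes were higher (background 31.5%), with Mcm6, Hells, Atad2 and Casp8ap2 changing sign. The median of all genes was then -0.20, so the distance between the 2 medians was 0.19 in place of 0.25. The 46 control barcodes left out had the S phase genes at 436 CPM, and the 209 antagonist barcodes at 2857 CPM. Without Pclaf, the sums over the remaining barcodes were 2360 CPM in control and 2465 CPM in antagonist cells, in place of 2256 and 2472 CPM. Under median-of-ratios scaling, which moved the median of all genes from -0.15 to -0.02, 35 of 42 were higher, as were 47.9% of all genes. Through the 12 alternative settings run over all cells, 19 genes were higher each time, or 45.2% of the list against 24.4% of all genes (Pclaf, Pcna, Clspn, Fen1, Tipin, Tyms, Rrm1, Rrm2, Cdc6, Cdc45, Gmnn, Rad51ap1, Exo1, Uhrf1, Nasp, Slbp, Wdr76, Ccne2 and E2f8). Another 7 were lower each time, or 16.7% of the list against 48.8% of all genes, with 65.3% of all genes lower before any setting was changed (Ung, Mcm4, Ubr7, Rfc2, Pold3, Rpa2 and Dtl). The other genes lay near equality and changed sign with the setting. Settings that changed only the count minimum left each gene's ratio as it was, so they could not change a sign in any cell population.

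**Figure D1:**
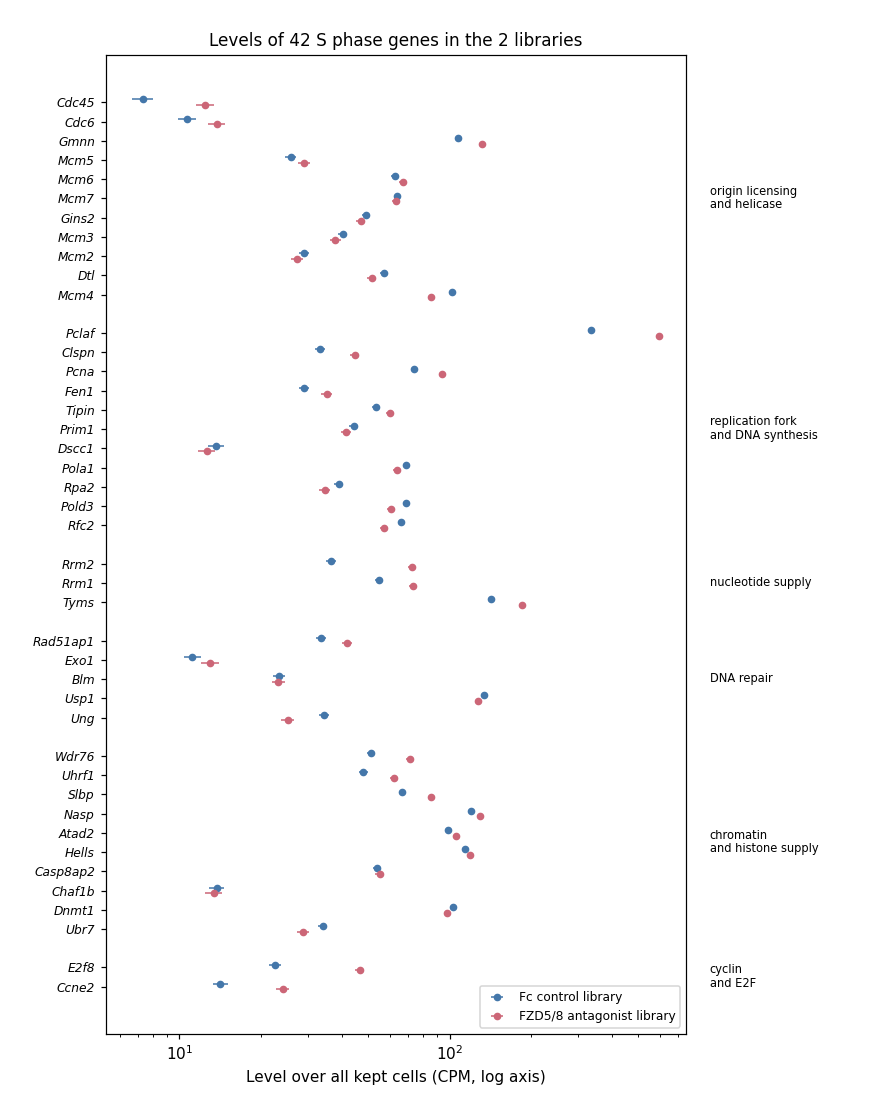
Level of each S phase gene over all kept cells in the Fc control library (blue) and the FZD5/8 antagonist library (red), in CPM on a log axis, grouped by role; bars are exact 95% Poisson intervals for counting error. E2f8 stands at 22.6 and 46.5 CPM and Pclaf at 333 and 595 CPM, while the points of Mcm7 and Blm lie on each other.

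By role, the cyclin and the E2F factor had the highest median log2 ratio, 0.90, while gene by gene Rrm2 and Pclaf lay above Ccne2. E2f8 (ENSMUSG00000046179, GRCm38 chromosome 7, 48866429 to 48881596), an atypical E2F that represses E2F target genes, was counted 1498 times in control and 2524 times in antagonist cells, 22.6 against 46.5 CPM, with a ratio of 2.05 (1.93 to 2.19). Ccne2 (chromosome 4, 11191351 to 11204779) encodes cyclin E2, which activates CDK2 at the start of S phase. It was at 14.2 CPM in control and 24.1 CPM in antagonist cells, a ratio of 1.70 (1.57 to 1.85). Both were higher in the antagonist library in each of the 4 cell populations described here.

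All 3 genes of nucleotide supply were higher, with a median log2 ratio of 0.42. Rrm2 (chromosome 12, 24708241 to 24714146), the S phase-limited small subunit of ribonucleotide reductase, was at 36.4 and 72.3 CPM, with a ratio of 1.99 (1.89 to 2.09). Rrm1, the large subunit, was at 54.7 and 73.1 CPM, with a ratio of 1.34 (1.28 to 1.40). Tyms (chromosome 5, 30058202 to 30073617), thymidylate synthase, was at 142 and 186 CPM, with a ratio of 1.31 (1.27 to 1.35). The subunits of the same enzyme thus stood at different ratios, and their intervals did not overlap.

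Licensing and helicase genes stood near equality, with a median log2 ratio of -0.02 and 5 of 11 higher. Of the 11, 10 lay above the median of all genes, which was -0.15. The 6 Mcm subunits, which act as 1 ring, did not share a direction. Mcm4 (chromosome 16, 15623897 to 15637400) was at 102 CPM in the control and 85.3 CPM in the antagonist library, 1.20-fold lower (1.15 to 1.24). Mcm2 was at 28.9 and 27.2 CPM, and Mcm3 at 40.2 and 37.8 CPM. Mcm7 was at 64.1 and 63.3 CPM, with an interval that included equality. Mcm6 (chromosome 1, 128331590 to 128359664) was at 62.7 and 67.2 CPM, and Mcm5 at 25.8 and 28.9 CPM, with a ratio of 1.12 (1.05 to 1.20). Mcm5 and Mcm6 turned lower when each cell was thinned to 3000 UMIs, with ratios of 0.95 for both and intervals that included equality.

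Among the factors that act on the ring, Cdc45, which joins it to form the active helicase, was at 7.31 and 12.5 CPM, with a ratio of 1.70 (1.51 to 1.92). Cdc6, the loader, was at 10.7 and 13.7 CPM, with a ratio of 1.29 (1.16 to 1.43), and Gmnn, the inhibitor of licensing, at 107 and 132 CPM, with a ratio of 1.23 (1.19 to 1.27). Gins2, of the GINS complex, was at 48.9 and 46.9 CPM. Dtl, the receptor of the ubiquitin ligase that destroys the licensing factor Cdt1 in S phase, was 1.11-fold lower, at 57.0 and 51.5 CPM.

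At the replication fork the genes split, with a median log2 ratio of -0.10 and 5 of 11 higher. Pclaf (chromosome 9, 65890237 to 65903266), a small PCNA-binding protein, had 22070 and 32325 UMIs, 333 and 595 CPM, with a ratio of 1.78 (1.75 to 1.82). It was the source of most of the difference in the summed level of this role, 824 against 1098 CPM. Pcna (chromosome 2, 132249162 to 132253314) was at 73.8 and 93.8 CPM, with a ratio of 1.27 (1.22 to 1.32). Clspn, a mediator of the replication checkpoint, was at 33.1 and 44.5 CPM, with a ratio of 1.34 (1.27 to 1.43). Fen1, the flap endonuclease of lagging strands, was at 28.9 and 35.1 CPM, and Tipin, of the fork protection complex, at 53.3 and 60.0 CPM.

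The 6 other fork genes of the list were lower in the antagonist library or near equality. The median log2 ratio of all genes was itself -0.15, and 8 of the 11 fork genes lay above it, 3 of these below equality. Rfc2, of the clamp loader, was 1.16-fold lower, at 66.2 and 57.1 CPM. Pold3, a subunit of polymerase delta, was 1.13-fold lower, at 69.1 and 61.0 CPM, and Rpa2, of the complex that covers single-stranded DNA, was 1.13-fold lower, at 38.8 and 34.5 CPM. Pola1, the catalytic subunit of polymerase alpha, was at 69.3 and 63.7 CPM, and its primase partner Prim1 at 44.2 and 41.3 CPM. Dscc1, of the loader used in cohesion, was at 13.7 and 12.6 CPM, with an interval that included equality. These 6 genes were between 1.07-fold and 1.16-fold lower, a smaller distance than that of Pclaf or Clspn in the other direction. Subunits of the same complexes outside the list, looked up after these values were seen, went either way. Rfc4 had a ratio of 1.23 (1.19 to 1.27), Rfc5 of 1.28 (1.21 to 1.36) and Rpa3 of 1.30 (1.26 to 1.34), while Rfc1 was 1.20-fold lower (1.16 to 1.25), and the intervals of Pold1 and Prim2 included equality.

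The repair genes had a median log2 ratio of -0.01, with 2 of 5 higher. Ung (chromosome 5, 114130386 to 114139323), the glycosylase that removes uracil from DNA, had the lowest ratio of the 42 genes. It was at 34.3 CPM in the control and 25.2 CPM in the antagonist library, 1.36-fold lower (1.27 to 1.46). Rad51ap1, which acts in homologous recombination, was at 33.5 and 41.8 CPM, with a ratio of 1.25 (1.18 to 1.32), and the exonuclease gene Exo1 at 11.2 and 13.0 CPM. Blm, a RecQ helicase, was at 23.3 and 23.2 CPM. Usp1, which removes ubiquitin from PCNA, was at 135 and 128 CPM.

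The chromatin and histone supply genes had a median log2 ratio of 0.08, with 7 of 10 higher. The pair that maintains DNA methylation at the fork stood apart from each other. Uhrf1 (chromosome 17, 56303321 to 56323486), which recognises hemimethylated DNA, was at 48.0 and 62.4 CPM, with a ratio of 1.30 (1.24 to 1.36). Dnmt1, the methyltransferase it recruits, was at 103 and 98.2 CPM, 1.05-fold lower (1.01 to 1.09). Wdr76 was at 51.0 and 71.3 CPM, with a ratio of 1.40 (1.33 to 1.46), and Ubr7 at 33.9 and 28.7 CPM, 1.18-fold lower (1.11 to 1.26). Slbp, which binds the stem-loop of histone mRNAs, was at 66.9 and 85.4 CPM, with a log2 ratio of 0.35 over all barcodes and 0.07 over those of at most 40000 UMIs. The histone chaperone gene Nasp was at 120 and 130 CPM, the remodeller gene Hells at 114 and 119 CPM, Atad2 at 99.0 and 106 CPM, Casp8ap2 at 53.8 and 55.1 CPM and Chaf1b, of chromatin assembly factor 1, at 13.7 and 13.4 CPM.

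The share of dividing cells differed between the libraries as well. Cells with at least 1 UMI of Mki67 or Top2a, proliferation genes that are not among the 42, are called cycling here. They were 5951 of 11263 control cells (52.8%) and 6848 of 11019 antagonist cells (62.1%). When each cell with enough UMIs was thinned to 3000, the shares were 46.5% of 7536 control cells and 66.7% of 5036 antagonist cells, and 3727 and 5983 shallower cells were left out. Cycling cells held 77.4% of the S phase UMIs in the control and 84.8% in the antagonist library. Of all UMIs they held 64.7% and 79.9%, so the S phase share stood farther above the share of all UMIs in the control library. A gate on 1 UMI leaves dividing cells among the others, more so in shallow cells.

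Within cycling cells the libraries lay closer together. The summed level was 3100 against 3256 CPM, and without Pclaf it was 2627 against 2590 CPM. The median log2 ratio was -0.06 (all genes -0.17), and 20 of 42 were higher (background 32.9%). E2f8, at 30.9 and 51.4 CPM, had a ratio of 1.66 (1.55 to 1.78), and Rrm2, at 51.3 and 81.8 CPM, with a ratio of 1.59 (1.51 to 1.68). They were the only ones of the 42 past 1.5-fold (background 6.35%). With a cycling gate of 2 UMIs, or one of 0.3% G2 and M phase UMIs, 0 of 42 were past 1.5-fold, and in thinned cells 3 were. Cdc45 had a ratio of 1.45 (1.28 to 1.65), which was 1.01 (0.78 to 1.31) in thinned cells. Pclaf was at 474 and 666 CPM, with a ratio of 1.41 (1.38 to 1.43).

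On the low side in cycling cells, Ung was 1.39-fold lower (1.28 to 1.51), Mcm4 1.29-fold lower (1.24 to 1.35) at 108 and 83.5 CPM, and Dscc1 1.27-fold lower (1.14 to 1.42). Through the alternative settings for cycling cells, 8 genes were higher each time, or 19% of the list against 20.9% of all genes (Ccne2, Cdc45, E2f8, Pclaf, Pcna, Rrm1, Rrm2 and Wdr76). Another 14 were lower each time, or 33.3% of the list against 47.8% of all genes (67.1% of all genes were lower before any setting was changed), among them Mcm3, Mcm4, Gins2, Dtl, Pola1, Prim1, Pold3, Rfc2, Rpa2, Dnmt1 and Blm. By role, the median log2 ratio in cycling cells was -0.12 for licensing, -0.20 for the fork, 0.21 for nucleotide supply, -0.19 for repair, -0.08 for chromatin and 0.60 for Ccne2 and E2f8.

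In cells without an Mki67 or Top2a UMI the S phase genes stood higher in the antagonist library. Their summed level was 1653 against 2317 CPM, the median log2 ratio 0.30 (all genes -0.11), and 35 of 42 were higher (background 40.3%), 16 of them by at least 1.5-fold (background 10.7%). Without the barcodes above 40000 UMIs the median was 0.22 (all genes -0.18) and 32 were higher (background 34.9%). Pclaf was at 76.4 and 313 CPM, with a ratio of 4.09 (3.86 to 4.33). Rrm2 was at 8.98 and 34.5 CPM, with a ratio of 3.84 (3.24 to 4.57). E2f8 had a ratio of 3.60 (2.97 to 4.36), Ccne2 of 3.04 (2.47 to 3.74), Clspn of 2.48 (2.07 to 2.98), Rad51ap1 of 2.25 (1.86 to 2.71), Uhrf1 of 2.13 (1.89 to 2.39) and Cdc6 of 2.06 (1.61 to 2.64). Mcm4, at 91.2 and 92.7 CPM, and Mcm2, at 28.1 and 28.0 CPM, had intervals that included equality.

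Depth moved with this result. Cells outside the cycling gate at equal depth had summed levels of 1965 and 2455 CPM, a median log2 ratio of 0.11 (all genes -0.25), and 25 of 42 higher (background 30.6%). Pclaf (log2 ratio 1.68), E2f8 (1.59), Rrm2 (1.5) and Ccne2 (1.40) remained past 2-fold there, while the median of the licensing genes was -0.05. How many of these cells were dividing cells without a captured Mki67 or Top2a UMI was not tested.

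**Figure D2:**
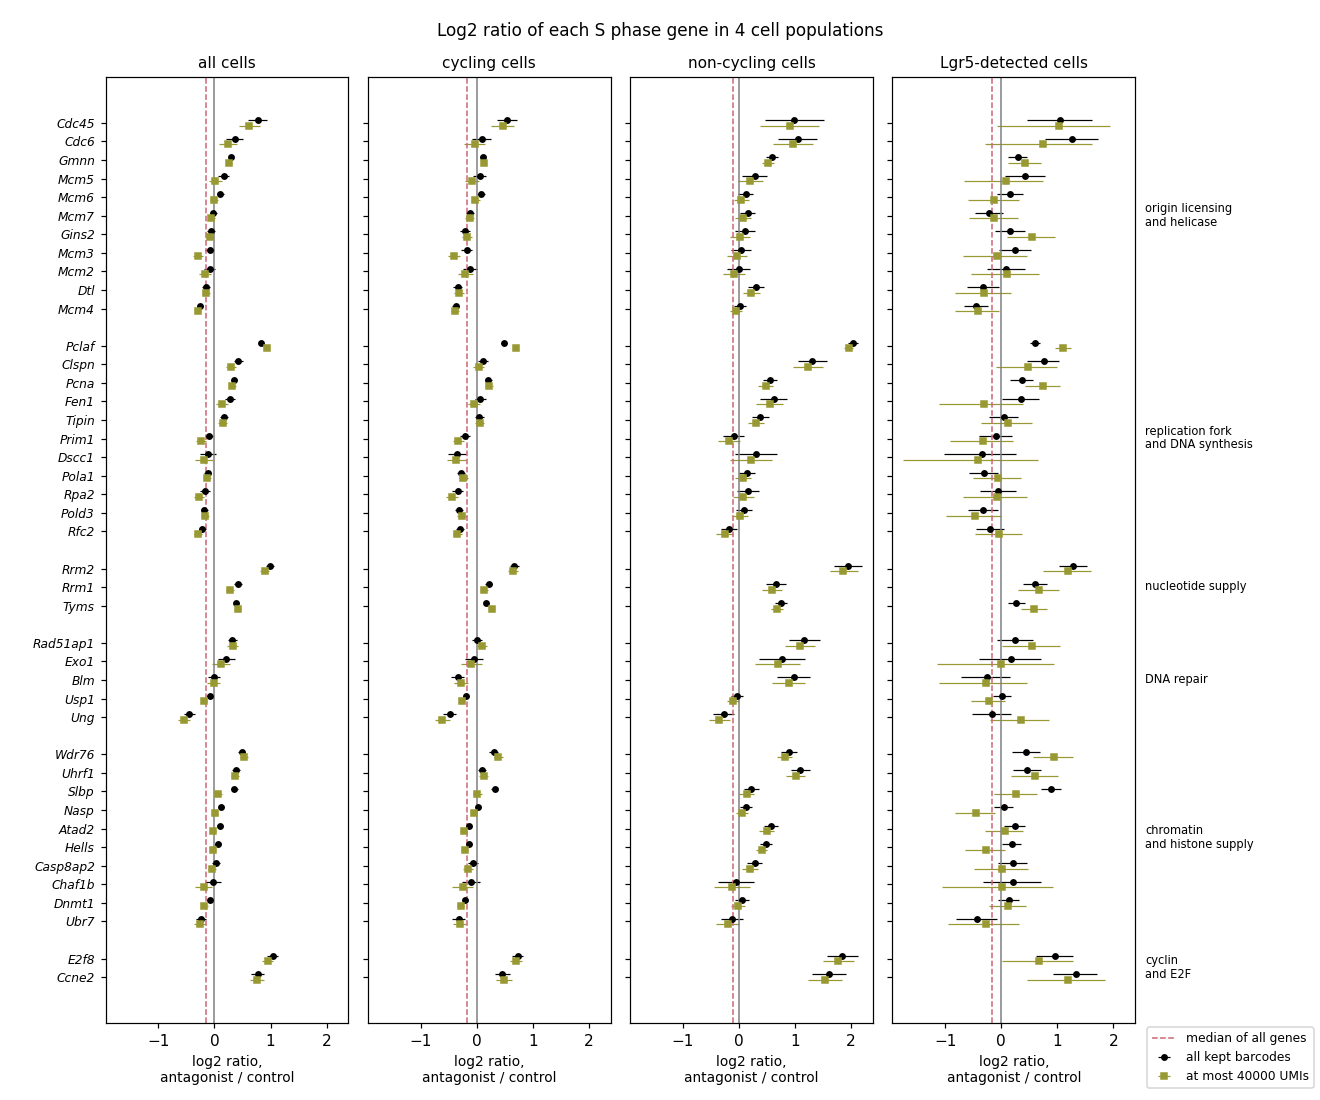
Log2 ratio (antagonist over control) of each S phase gene in all, cycling, non-cycling and Lgr5-detected cells, with exact 95% intervals for counting error; black circles use all kept barcodes and olive squares those with at most 40000 UMIs, and the dashed red line is the median of all genes (-0.15, -0.17, -0.11 and -0.16). Pclaf, Rrm2, E2f8 and Ccne2 lie farthest to the right in non-cycling cells, while most licensing and fork genes lie near or below 0 in cycling cells.

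The genes differed in how closely they followed the cycling gate. In thinned control cells, Rrm2 was 4.30 times (3.61 to 5.16), Pclaf 4.24 times, Clspn 3.85 times, E2f8 3.70 times and Rad51ap1 3.59 times as high in cycling as in other cells. Mcm6, at 0.97 times, Mcm4, at 1.02 times, Mcm2, at 1.07 times, and Ung, at 0.89 times, had intervals that included equality. The median over the 42 genes was 1.5 in the control and 1.30 in the antagonist library. In antagonist cells Rrm2 was 2.36 times (2.01 to 2.77), Pclaf 2.24 times, E2f8 1.91 times and Clspn 1.89 times as high in cycling cells. The intervals of these 4 genes did not overlap those of the control library, but they cover counting error only, and the difference was not tested. Ccne2 was 1.92 times as high in control (1.53 to 2.42) and 0.98 times in antagonist cells (0.79 to 1.21).

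Cycling cells were divided further by a list of mitotic genes, into those with 0 to 2 mitotic UMIs of 3000 and those with 3 or more. In the control library 19.4% of thinned cells were in the former class and 27.1% in the latter, and in the antagonist library 20.2% and 46.5%. In both libraries the larger share of cycling cells thus lay in the class with 3 or more mitotic UMIs, by a wider distance in the antagonist library. Licensing genes were higher in the class with few mitotic UMIs, at 815 against 547 CPM in the control and 858 against 495 CPM in the antagonist library. Over the 42 genes the median ratio of the former class to the latter was 1.22 in the control and 1.42 in the antagonist library. The median over all genes was not calculated for this ratio.

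Single genes followed this order to different degrees. The ratio was above equality for 30 of 42 genes in the control and 39 of 42 in the antagonist library. The share over all genes was not calculated for this ratio, so these counts cannot be told apart from a shift of all genes. Cdc6 was 3.21 and 2.97 times as high in the class with few mitotic UMIs (control and antagonist), Mcm4 2.09 and 2.42 times, Dtl 1.75 and 2.58 times and Ung 3.23 and 1.96 times. Blm was lower there, at 0.58 and 0.79 times. Tyms stood at 0.80 and 1.10 times, Rrm1 at 0.79 and 1.06 times, Rrm2 at 0.92 and 1.25 times and Pclaf at 0.85 and 1.07 times, so that the nucleotide supply genes and Pclaf were below equality in the control and above it in the antagonist library. The difference between the libraries in these ratios was not tested.

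Within each class the sums of the nucleotide supply genes and of Ccne2 and E2f8 were higher in the antagonist library, and that of the fork genes was higher with Pclaf counted. Gene by gene, 7 of 11 fork genes were higher in the class with few mitotic UMIs and 2 of 11 in the class with 3 or more. The share of all genes was not calculated for each class. Over all thinned cycling cells, 30.1% of all genes were higher. In the class with few mitotic UMIs, fork genes summed to 1153 and 1653 CPM (Pclaf alone to 479 and 938 CPM), nucleotide supply genes to 295 and 450 CPM, and Ccne2 and E2f8 to 58.4 and 104 CPM. In the same class repair genes were at 318 and 271 CPM, chromatin genes at 1024 and 1044 CPM and licensing genes at 815 and 858 CPM. In the class with 3 or more mitotic UMIs, licensing genes (547 and 495 CPM), repair genes (318 and 253 CPM) and chromatin genes (795 and 702 CPM) were lower in the antagonist library. Fork genes other than Pclaf, left out after its values were seen, were at 674 and 715 CPM in the class with few mitotic UMIs, at 580 and 489 CPM in that with 3 or more, and at 406 and 415 CPM in cells without an Mki67 or Top2a UMI.

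**Figure D3:**
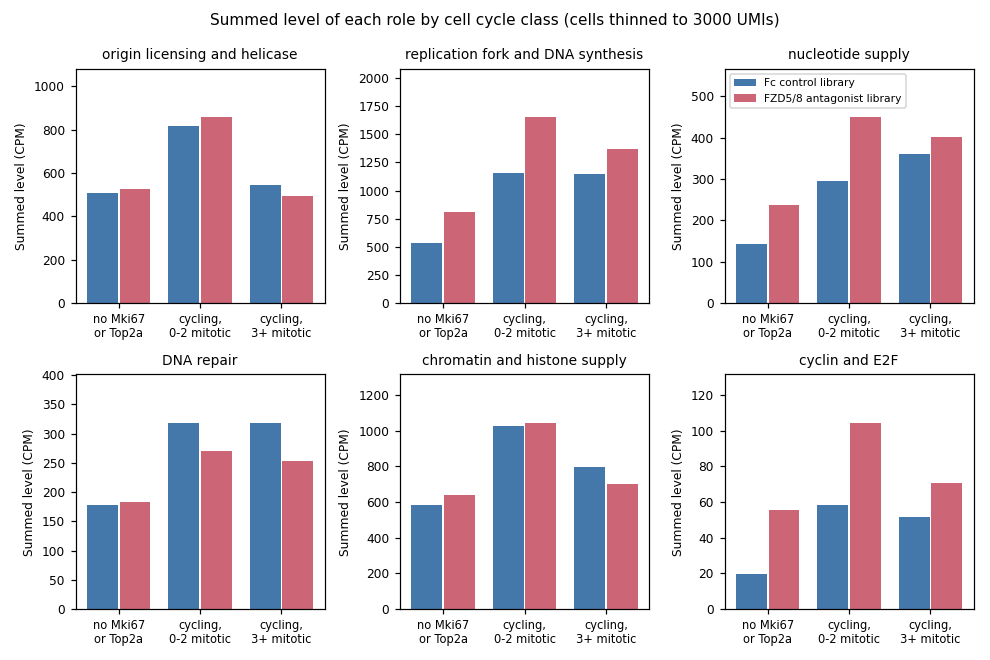
Summed level in CPM of each role in cells without an Mki67 or Top2a UMI, cycling cells with 0 to 2 mitotic UMIs and cycling cells with 3 or more, for the Fc control (blue) and FZD5/8 antagonist (red) libraries, each cell thinned to 3000 UMIs; there is 1 library per bar and no replicate error. Nucleotide supply and cyclin and E2F genes are higher in the antagonist library in all 3 classes, while repair genes are lower in both cycling classes.

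Cells with an Lgr5 UMI numbered 3059 of the control (27.2%) and 159 of the antagonist cells (1.44%). The gate gene itself differs between the libraries, so the gate does not select like cells. The median log2 ratio of the S phase genes in these cells was 0.20 (all genes -0.16), 30 of 42 were higher (background 34.7%), and 9 were at least 1.5-fold higher (background 8.25%). Ccne2 was at 11.3 and 28.3 CPM, with a ratio of 2.52 (1.91 to 3.29), from 241 and 72 UMIs. Rrm2 was at 29.3 and 71.3 CPM, with a ratio of 2.43 (2.05 to 2.87), and Cdc6 at 8.37 and 20.1 CPM, with a ratio of 2.40 (1.72 to 3.29). Lowest were Mcm4, 1.36-fold lower (1.18 to 1.59), Ubr7, 1.34-fold lower (1.05 to 1.75), and Dscc1, whose interval included equality. Of the Lgr5-detected cells, 1735 in the control and 111 in the antagonist library were also cycling. In these cycling cells the summed level was 2869 against 2877 CPM. Their median log2 ratio was -0.02 (all genes -0.22), and 20 of 42 genes were higher (background 30%).

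These values rest largely on 26 of the 159 antagonist cells, those above 40000 UMIs, which held 70.9% of the UMIs. In the other 133 antagonist cells Ccne2 had a ratio of 2.29 (1.37 to 3.61) and Rrm2 of 2.28 (1.68 to 3.03), Cdc6 of 1.67 with an interval of 0.82 to 3.06, and Pclaf of 2.14 (1.94 to 2.36) in place of 1.52 (1.42 to 1.62). The median log2 ratio over the 42 genes was then 0.11, and 25 were higher (background 39%).

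Counting S phase UMIs in each cell at equal depth showed how the difference was spread. The median was 6 of 3000 UMIs in control and 8 in antagonist cells, and 15.6% (14.8 to 16.4) and 21.7% (20.5 to 22.9) of cells had 15 or more, with exact binomial intervals. In cycling cells the medians were 8 and 9, and 25.3% of cells in both libraries had 15 or more. Outside the cycling gate the medians were 5 and 6, and 7.12% (6.35 to 7.96) of control and 14.4% (12.8 to 16.2) of antagonist cells had 15 or more. The latter also had more cells with no S phase UMI, 9.35% against 5.63%, so the non-cycling antagonist cells were more widely spread in both directions.

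**Figure D4:**
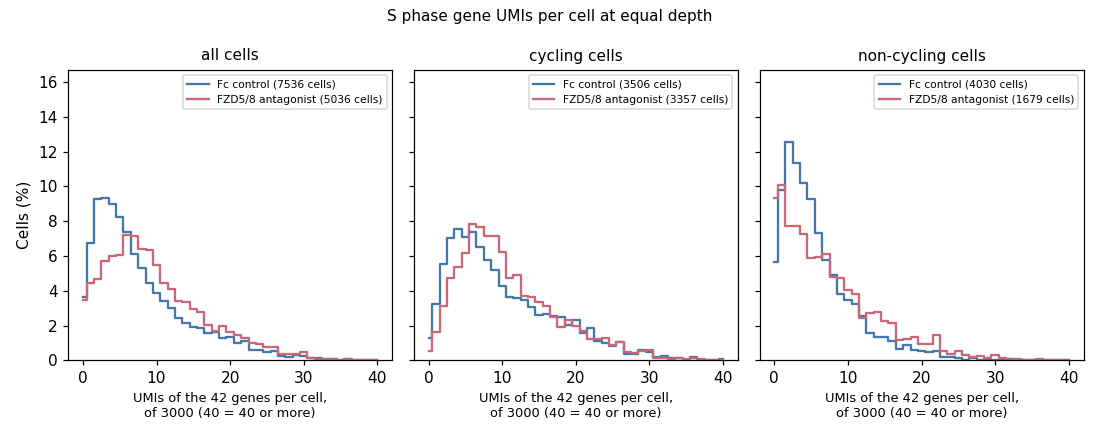
Share of cells (%) by the number of UMIs of the 42 S phase genes per cell after thinning to 3000 UMIs, in all, cycling and non-cycling cells of the Fc control (blue) and FZD5/8 antagonist (red) libraries; the last step holds cells with 40 or more. Over all cells the median is 6 in control and 8 in antagonist cells, and among non-cycling cells the share with 15 or more is 7.12% in control and 14.4% in antagonist cells.

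The share of cells with a UMI was also higher in the antagonist library for the leading genes. At 3000 UMIs per cell, Pclaf was found in 36.3% of control and 66.6% of antagonist cells (40.7% and 61.5% before thinning), Rrm2 in 8.32% and 17.5% (12.9% and 20.3%), E2f8 in 6.01% and 12.4% (10.3% and 15.5%) and Tyms in 30.5% and 42.9% (39.2% and 41.7%). Mcm4 was found in 25.4% and 21.2% (34.6% and 24.4%) and Mcm6 in 17.0% and 16.6% (25.6% and 20.5%). For background, cells rich in enterocyte markers, 125 control and 164 antagonist cells with medians of 7885 and 5905 UMIs before thinning, had Pclaf in 11.2% and 9.76%, Rrm2 in 1.60% and 1.83%, Tyms in 7.20% and 6.10% and Mcm4 in 3.20% and 4.27%. These 4 genes were found more often over all cells than in this reference. Cells rich in tuft markers, 164 and 44 cells with medians of 5154 and 5018 UMIs, had Pclaf in 14.6% and 36.4%. Of these tuft-marker cells 16.5% and 36.4% also had an Mki67 or Top2a UMI.

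Summed UMIs of the roles varied together from cell to cell, given here as a description without a test, over 7536 control and 5036 antagonist cells of equal depth. Between pairs of roles Spearman's rho ran from 0.15 to 0.45 in the control and from 0.11 to 0.42 in the antagonist library, and in sparse counts such values are weak. Licensing and chromatin genes had a rho of 0.45 and 0.41, and licensing and fork genes 0.41 and 0.38. With a list of 35 G2 and M phase genes, fork genes had a rho of 0.34 and 0.24, nucleotide supply genes 0.30 and 0.21, and licensing genes 0.11 and -0.06. Among the 3506 control and 3357 antagonist cells of the cycling gate these were lower, at 0.10 and -0.07 for fork, 0.14 and 0.02 for nucleotide supply and -0.13 and -0.27 for licensing genes.

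Other replication genes, a list of 117 by the same roles, had a median log2 ratio of 0.05 over all cells, with 65 higher (background 34.7%), 8 at least 1.5-fold higher (background 6.51%) and 4 at least 1.5-fold lower (background 19.5%). The highest were E2f2, an activating E2F, at 10.5 and 22.3 CPM (ratio 2.13, 1.94 to 2.34), Ccne1, which encodes cyclin E1, at 12.6 and 21.6 CPM (1.72, 1.57 to 1.88), and Dck, a kinase of nucleotide salvage, at 12.9 and 20.7 CPM (1.61, 1.47 to 1.76). Lowest were Cdca7, a partner of Hells and also on the list of stem cell markers, 2.89-fold lower (2.81 to 2.97), Dctd, a deaminase that makes the substrate of thymidylate synthase, 1.57-fold lower (1.43 to 1.72), and Cdca7l, 1.55-fold lower (1.45 to 1.65). The 35 G2 and M phase genes had a median of 0.43, with 34 higher, and in cycling cells a median of 0.12. Within the 42 S phase genes, the 15 with an E2F word in the promoter had a median log2 ratio of 0.04 (8 higher), the 17 without it a median of 0.32 (11 higher), and the 10 with no promoter in the table a median of 0.02 (5 higher).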

How the data were processed

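Cells of 1 library per condition were measured by 3′ droplet RNA-seq. Per the file headers, the deposited values are raw UMI counts for each gene in each barcode, made with Cell Ranger 3.1.0; the build was GRCm38 (mm10), per the submitters' processing notes. Whether counting used strand, and how reads shared between gene copies were counted, is not given in the sources used here. Mcm7, Cdc45, Gins2, Rfc2, Fen1, Pclaf, Ubr7 and Ccne2 overlap a gene of the files on the opposite strand.

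Counts of kept cells (at least 500 genes, at most 20% mitochondrial UMIs) were summed per library and population and divided by the total, as CPM. Log2 ratios had 0.5 added to each sum and used genes with 20 or more UMIs. Levels have exact Poisson, ratios exact conditional binomial and shares exact (Clopper-Pearson) 95% intervals, which cover counting error only. Thinned cells were drawn down to 3000 UMIs without replacement. Cells rich in enterocyte or tuft markers had at least 2% or 0.5% of their UMIs in those lists. Doublets were not removed. Python 3.11.15, numpy 2.4.6, pandas 2.3.3 and scipy 1.17.1 were used, and the calculations were tested on simulated data.

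The members, role lists, marker lists and other gene lists were chosen with earlier results of these data known. Full values were given for the 6 highest and 6 lowest ratios over all cells among genes with 20 CPM or more, the 6 Mcm subunits, Pcna, the nucleotide supply genes, Dnmt1, Uhrf1 and Pclaf, the 3 highest and 3 lowest in cycling and Lgr5-detected cells, and the 3 highest and 3 lowest other replication genes. Alternatives were other cell filters, thinning, equal weight per cell, weighting of cycling classes, scaling, count minimums, added constants and gates. Chosen after seeing the data were the marker-rich gates and leaving out barcodes of both libraries, barcodes above 40000 UMIs or marker-rich cells. Sequences are from RefSeq (GRCm38.p6) and gene positions from GENCODE (GRCm38).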

Additional observations from a re-analysis of the deposited data

Results flagged for a closer look

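For 6 genes the ratio pointed in opposite directions in cycling and in non-cycling cells, with an interval on either side that excluded equality: lower in the antagonist library in cycling cells and higher in the others. The log2 ratio in non-cycling minus that in cycling cells was 1.32 for Blm, 0.72 for Atad2, 0.64 for Dtl, 0.62 for Hells, 0.44 for Pola1 and 0.28 for Mcm7. With 1 library per condition the difference was not tested. At equal depth Dtl and Pola1 were lower in the non-cycling cells too, with log2 ratios of -0.05 and -0.17, while Blm was at 0.70, Atad2 at 0.32, Hells at 0.22 and Mcm7 at 0.08.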

How the results depend on the processing

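Directions over the whole list were small and moved with the setting. Thinning also left out the 3727 control and 5983 antagonist cells with too few UMIs. Over all cells the median log2 ratio of 0.10 was 0.022 in thinned cells, 0.23 with median-of-ratios scaling, 0.0072 without barcodes found in both libraries and -0.0078 without those above 40000 UMIs. The median of all genes moved as well, from -0.15 to -0.23, -0.02, -0.19 and -0.20 in these settings. The distance between the 2 medians was 0.25 at first, and 0.25, 0.25, 0.20 and 0.19 in these settings. In cycling cells the median of -0.06 (all genes -0.17) was -0.15 in thinned cells (all genes -0.22) and 0.10 with median-of-ratios scaling. With a gate of 2 UMIs it was -0.16 (all genes -0.17), and 11 of 42 genes were higher in place of 20 (32.2% of all genes). In non-cycling cells the median of 0.30 (all genes -0.11) was 0.11 in thinned cells (all genes -0.25). In Lgr5-detected cells the median of 0.20 (all genes -0.16) was 0.47 in thinned cells (all genes 0.001). With a gate of 2 UMIs it was 0.68 (all genes 0.12). Clspn turned to -1.03 in thinned Lgr5-detected cells, of which 39 were from the antagonist library. The cause of these shifts was not tested. Leaving out the 1008 control (8.95%) and 1577 antagonist cells (14.3%) rich in markers of other cell types gave a median of 0.06 over all cells (all genes -0.17). Without a second library per condition, no interval covers variation between mice, captures or sequencing. No paired analysis was possible because each condition has 1 library.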
